A study of Rattus norvegicus with 29 samples.

Results

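Guca2a, Gip, Ghrl and Gcg encode 4 peptides that the gut releases, and their duodenal expression was described here in rats that had undergone bariatric surgery or a sham operation. The genes were found by their symbol in the annotation of the array, were 4 of the 14557 genes tested, and had 1 row of the table each. Guca2a encodes guanylin, which epithelial cells secrete into the lumen, where it binds guanylate cyclase C on enterocytes, raises cyclic GMP and opens the chloride channel CFTR. Gip encodes the glucose-dependent insulinotropic peptide of the duodenal K cells, and Gcg encodes proglucagon, from which enteroendocrine L cells cut the glucagon-like peptides and islet alpha cells cut glucagon. Ghrl encodes ghrelin, a hunger hormone made mostly in the stomach and in smaller amount in the duodenum. Enteroendocrine cells are scattered singly among the enterocytes, so whole tissue gives a diluted signal of them, and fewer cells of a type cannot be told apart from less RNA per cell.

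The study, which asks about iron uptake and gut hormones, hybridised duodenal total RNA to Affymetrix arrays, with 1 array for each of 29 rats. All were male Long-Evans rats, wild-type and 8 to 10 weeks old. The groups were RYGB (Roux-en-Y gastric bypass, 6 rats), RYGB sham (5 rats), VSG (vertical sleeve gastrectomy, 6 rats), pair-fed VSG sham (6 rats, called pair-fed sham below) and VSG sham (6 rats). RYGB leads food from a small gastric pouch past the duodenum. In VSG about 80% of the stomach was cut away and food still passes the duodenum. Every rat was given liquid diet in place of solid food on the day before the operation, was anaesthetised with isoflurane and had the abdomen opened. In the sham operation that the labels describe, blunt forceps were pressed on the stomach where VSG is cut, and no separate description of the RYGB operation or its sham is given there. No source used here gives the time between operation and tissue collection. RYGB had no pair-fed sham, so for RYGB the operation and any change in food intake cannot be told apart. All levels are deposited log2 RMA values, on which a difference of 1 is a doubling, and no level of one gene is set against that of another. Called genes are those with limma's Benjamini-Hochberg adjusted p, taken over all 14557 genes, under 0.05. As a check of the tissue, the mean of 15 measured enterocyte markers was between 9.74 and 10.3 on every array.

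The 250 bases before the transcription start of 3 of the genes are shown because Guca2a was the member that was called, and because Gip and Ghrl varied together from rat to rat. They are read on the gene's own strand from RefSeq in the rat assembly GRCr8, and capitals mark AGATAA or its reverse complement TTATCT, the letters that GATA factors, regulators of intestinal epithelium, can bind.
Guca2a promoter, chr5:138522196-138522445 (+): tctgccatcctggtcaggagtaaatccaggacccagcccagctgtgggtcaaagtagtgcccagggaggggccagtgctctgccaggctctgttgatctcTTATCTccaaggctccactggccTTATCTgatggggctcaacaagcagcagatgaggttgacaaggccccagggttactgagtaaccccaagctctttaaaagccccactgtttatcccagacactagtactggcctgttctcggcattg
Gip promoter, chr10:81464820-81465069 (+): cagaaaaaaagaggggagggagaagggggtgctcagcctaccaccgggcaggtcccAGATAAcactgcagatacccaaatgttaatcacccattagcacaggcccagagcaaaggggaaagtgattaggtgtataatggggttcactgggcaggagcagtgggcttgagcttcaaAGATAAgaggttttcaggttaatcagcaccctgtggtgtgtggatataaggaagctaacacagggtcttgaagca
Ghrl promoter, chr4:148425225-148425474 (-): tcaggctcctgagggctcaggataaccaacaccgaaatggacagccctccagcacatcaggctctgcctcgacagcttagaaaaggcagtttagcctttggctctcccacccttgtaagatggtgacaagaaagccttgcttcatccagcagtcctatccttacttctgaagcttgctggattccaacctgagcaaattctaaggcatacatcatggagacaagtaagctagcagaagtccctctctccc

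In the Guca2a window the letters stood on the opposite strand and began 150 and 127 bases before the start. In the Gip window they stood on the gene's strand, 194 and 75 bases before the start. The Ghrl window held neither form, and the Gcg window held TATAAA or its reverse complement TTTATA at 80 and 32 bases before the start. Of 33469 rat promoter windows of this length, 10.3% held AGATAA on either strand, 12.9% held TATAAA and 16.6% held ACGTG, the core letters bound by hypoxia-inducible factors. ACGTG was in none of the 4 windows. These are matches of letters and not measured binding sites.

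Pooled over the 5 groups, Guca2a had the lowest SD between rats of the 4 genes and Gcg the highest. This pooled SD within groups was 0.18 for Guca2a, 0.22 for Gip, 0.23 for Ghrl and 0.52 for Gcg. The median over all genes tested was 0.26. Only 17.6% of genes had a lower SD than Guca2a, while 97.7% had a lower SD than Gcg. The ranking did not hold in each group. In pair-fed sham the SD of Guca2a (0.29) exceeded those of Gip (0.25) and Ghrl (0.22). The SD of Gcg was 0.95 in pair-fed sham. In RYGB sham it was 0.30, below those of Gip (0.32) and Ghrl (0.36). Over the 29 arrays Guca2a ran between 10.32 and 11.25, Gip between 8.87 and 9.69, Ghrl between 6.99 and 8.22, and Gcg between 4.32 and 6.80. In an F-test over the 5 groups Guca2a passed (F = 6.72, adjusted p = 0.0224), as did 3.75% of all genes. Ghrl (F = 2.98, adjusted p = 0.267), Gcg (F = 2.56, adjusted p = 0.343) and Gip (F = 0.88, adjusted p = 0.776) did not pass. The plot of levels by rat shows all values.

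**Figure D1:**
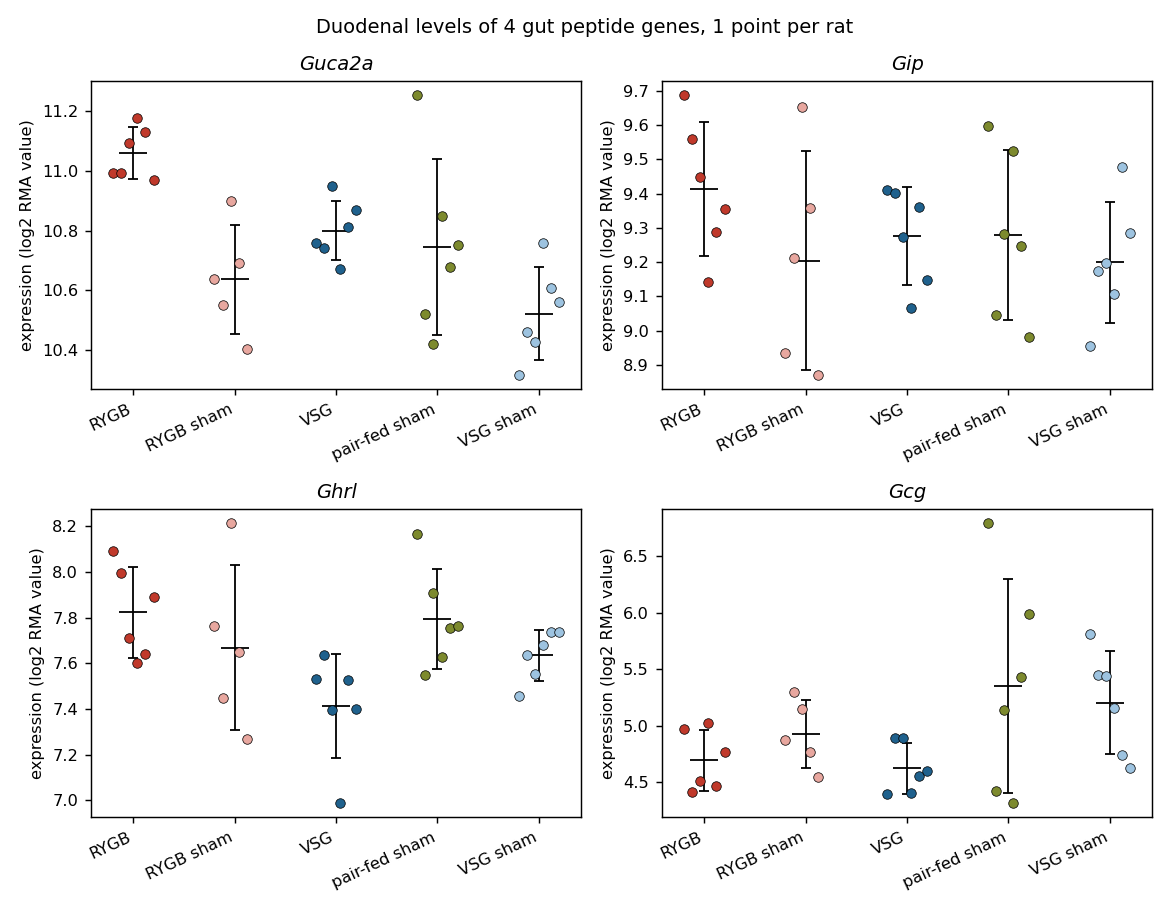
Each panel plots the log2 RMA value of one gene (vertical axis, scale differs between panels) by group, with 1 point for each rat, a long bar at the group mean and whiskers of 1 SD. Guca2a in the 6 RYGB rats lies between 10.97 and 11.17, above all 5 RYGB sham rats. Gcg is spread widely in pair-fed sham, between 4.32 and 6.80.

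Guca2a was higher in every RYGB rat than in any RYGB sham rat. In the 6 RYGB rats it had 10.97 at the lowest, a median of 11.04 and 11.17 at the highest. The 5 RYGB sham rats had 10.64, 10.55, 10.90, 10.69 and 10.40. The groups did not overlap, as was true of 2.78% of all genes in either direction, and the lowest RYGB rat lay just above the highest sham rat. The means were 11.06 ± 0.09 after RYGB and 10.64 ± 0.18 in RYGB sham (SD), a rise of 0.42 ± 0.11 (SE) or 1.34-fold, with a 95% interval from 0.19 to 0.65 (adjusted p = 0.0405). It was the 1 member called here, where 2.64% of all genes were called. The call lies close to the threshold: it was lost in 10 of the 11 fits that left out 1 RYGB or RYGB sham array (0.36 to 0.49, adjusted p between 0.0207 and 0.124) and held without RYGB sham replicate 3. It was also lost in 8 of 14 other settings, and over all 14 the difference ran between 0.32 and 0.45.

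Markers of other tissue layers and of the pancreas, which lies against the duodenum, also lay higher or lower in this comparison. All 21 measured of 29 exocrine pancreas markers were above 0, with a median difference of 3.23 against 0.00 over all genes, although none was called. Their mean averaged 6.82 ± 2.01 in RYGB and 3.78 ± 1.09 in RYGB sham rats, and ran between 3.37 and 8.62 and between 3.08 and 5.72 in these groups. With that mean as a covariate the Guca2a difference was 0.32 ± 0.13 (adjusted p = 0.294). Of 10 measured of 15 markers of enteric neurons and glia 9 were below 0 (median -0.31), with means of 3.53 to 3.94 in RYGB and 3.92 to 4.41 in RYGB sham rats. The 1 called, where 2.64% of all genes were called, was the neuropeptide gene Vip, at -1.22 ± 0.24 (adjusted p = 0.00343). Of 6 measured of 10 smooth muscle markers 5 were below 0 (median -0.24) and none was called, with means of 7.55 to 8.35 in RYGB and 7.97 to 8.16 in RYGB sham rats. Of 13 measured of 15 immune cell markers 10 were below 0 (median -0.18) and none was called. Of 11 measured of 15 markers of Brunner glands and gastric or pyloric epithelium 7 were above 0 and none was called. Their median difference was 0.26, with single genes from -1.05 to 1.94. The mean of this gastric list ran between 3.51 and 4.945 in RYGB and between 3.45 and 3.90 in RYGB sham rats.

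The lists of epithelial markers are given beside the 2.64% of all genes called in this comparison. Of 11 measured of 12 goblet cell markers 1 was called, Spink4, a peptidase inhibitor of goblet cells, at -2.01 ± 0.25 (adjusted p = 4.26e-06). The goblet list's mean ran between 8.04 and 8.54 in RYGB and between 8.42 and 8.62 in RYGB sham rats, and its median difference was 0.03. Of 15 measured of 18 enterocyte markers 2 rose, Anpep and Ace, the angiotensin-converting enzyme of the brush border, the second by 1.02 ± 0.21 (adjusted p = 0.00370). Of the 15 enterocyte markers 10 were above 0 and 5 below 0, the lowest at -0.47, and the median difference was 0.02. The mean of the enterocyte list ran between 9.97 and 10.3 in RYGB and between 9.74 and 10.2 in RYGB sham rats. Vip, Spink4 and Ace are named after their values were seen. Covariates for exocrine, islet, gastric and insulin transcripts were tried, and so was a fit without the 4 arrays rich in insulin transcripts. That fit, chosen after the data were seen, gave 0.40 ± 0.10 for Guca2a (adjusted p = 0.0307). Otherwise the part of these transcripts in the Guca2a result was not tested.

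After VSG, Guca2a lay above its sham by a smaller amount that did not pass. The 6 VSG rats had 10.67 at the lowest, a median of 10.78 and 10.95 at the highest, against 10.32, 10.51 and 10.76 in the 6 VSG sham rats. Of the VSG rats 3 lay above all sham rats, and none of the 4 genes separated these groups, as 0.845% of all genes did. The means were 10.80 ± 0.10 in VSG and 10.52 ± 0.16 in VSG sham rats, a difference of 0.28 ± 0.11 with an interval from 0.05 to 0.50 (adjusted p = 0.439). All 21 measured exocrine pancreas markers were above 0 in this comparison as well, with a median difference of 1.87 and none called. With their mean as a covariate the Guca2a difference was 0.22 ± 0.11 (adjusted p = 0.643). None of the 4 members was called in VSG against its sham, where 0.179% of all genes were. The RYGB effect exceeded the VSG effect by 0.14 ± 0.16 with an interval from -0.18 to 0.47 (adjusted p = 0.893), so a difference between the operations was not shown for Guca2a.

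The pair-fed sham mean of Guca2a (10.75 ± 0.29) lay between those of VSG and VSG sham rats, and the rats spread widely. They had 10.42 at the lowest, a median of 10.72 and 11.25 at the highest, the last in pair-fed sham replicate 1, which was the highest of all 29 arrays. VSG differed from pair-fed sham by 0.05 ± 0.11 (interval -0.17 to 0.28, adjusted p = 0.907), and pair-fed sham from VSG sham by 0.22 ± 0.11 (interval 0.00 to 0.45, adjusted p = 0.894). These 3 comparisons share their arrays. Without the 4 arrays rich in insulin transcripts, pair-fed sham replicate 1 among them, the differences were 0.18 ± 0.10 and 0.05 ± 0.11, and without pair-fed sham replicate 1 alone the second was 0.12. No member was called in VSG against pair-fed sham, where 0.508% of all genes were, or in pair-fed sham against VSG sham. In the last comparison limma called 0% of genes, with 811 at an unadjusted p under 0.05.

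**Figure D2:**
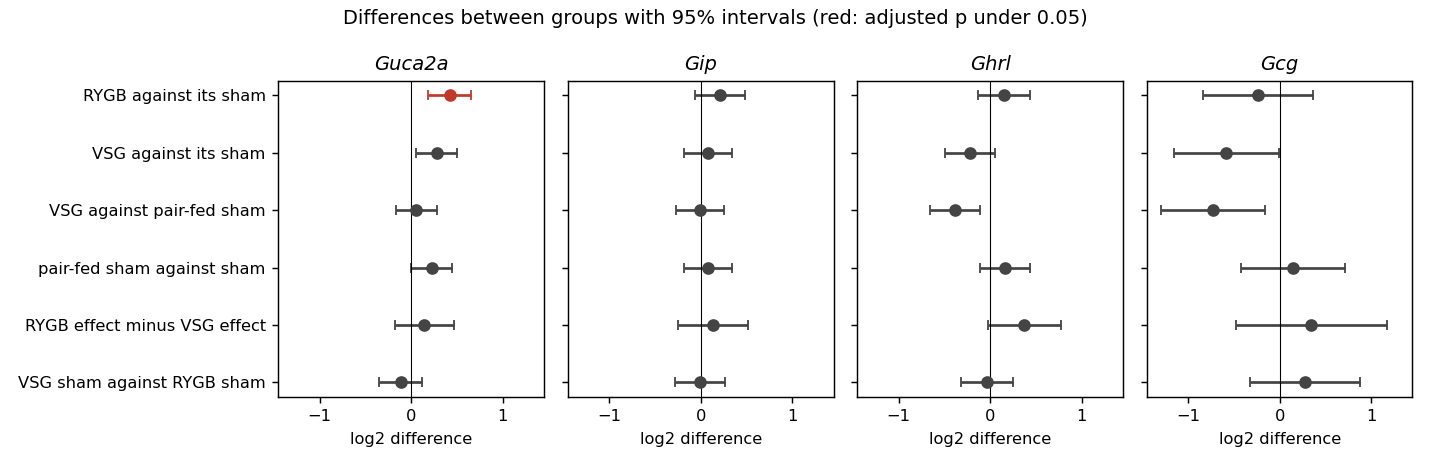
Each panel shows one gene, with the log2 difference between groups on the horizontal axis and the 6 comparisons running down the page. Points are differences from limma, bars are 95% intervals and red marks an adjusted p under 0.05. Only Guca2a in RYGB against its sham (0.42) is red, and the intervals of Gcg are the widest.

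Downstream of guanylin, 1 of the 11 measured genes of its signalling list of 13 rose and 1 fell after RYGB, while 9 did not pass, where 2.64% of all genes were called. The median difference of the list was 0.04, against 0.00 over all genes. Cftr, the chloride channel that cyclic GMP opens, had 7.51 at the lowest, a median of 7.60 and 7.72 at the highest in RYGB rats. RYGB sham rats had 6.98 to 7.34, and the groups did not overlap, as was true of 2.78% of all genes in either direction. Cftr rose by 0.40 ± 0.10 (adjusted p = 0.0256), and was 0.41 with the exocrine covariate (adjusted p = 0.0881). The call was lost without RYGB replicate 6 (0.37), without RYGB sham replicate 1 or 3 (0.34 and 0.39), with the 2 groups fitted alone (0.40, adjusted p = 0.0726) and with the replicate block (0.37, adjusted p = 0.0643). Abcc4, a pump that exports cyclic nucleotides, ran between 3.19 and 4.04 in RYGB rats and between 3.86 and 4.39 in RYGB sham rats. It fell by 0.56 ± 0.16 on the log2 scale (adjusted p = 0.0450), but 7 of 14 other settings and 8 of 11 fits without 1 array (-0.65 to -0.47) lost the call. With its rows averaged the difference was -0.22 (adjusted p = 0.402).

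The receptor itself, Gucy2c (guanylate cyclase C, named here for its role and outside the naming rule), averaged 8.62 ± 0.37 in RYGB and 8.58 ± 0.27 in RYGB sham rats, and the groups overlapped. Best4, an anion channel that marks a small class of epithelial cells in the human gut, had 4.89 at the lowest, a median of 5.33 and 6.07 at the highest in RYGB rats, against 3.98, 4.66 and 5.22 in RYGB sham rats. Its difference of 0.76 ± 0.25 did not pass (adjusted p = 0.111). In VSG it was at -0.39 ± 0.24 against its sham (adjusted p = 0.682), and the RYGB effect minus the VSG effect was 1.16 ± 0.35 (adjusted p = 0.191). Prkg2, the kinase through which cyclic GMP acts in the epithelium, was at 0.28 ± 0.12 after RYGB (adjusted p = 0.287). None of the 11 genes was called in the VSG or pair-fed comparisons, where 0% to 0.508% of all genes were.

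Over the 29 arrays, with group means subtracted, the genes that followed Guca2a most closely of 7253 candidates were Tff3 (r = 0.82), a trefoil peptide of goblet cells, Fbxw7 (0.73), Id1 (0.70), Rnase4 (0.70) and Ifi27l2b (0.66). Without subtracting group means they were Arg2 (0.78), Ndrg1 (0.75), Dhrs7 (0.73), Tmem230 (0.72) and Abcg2 (0.72). Such correlations describe arrays that share one extract for both genes. Tff3 itself averaged 10.89 ± 0.09 in RYGB and 10.91 ± 0.23 in RYGB sham rats. The mean of the goblet list had r = 0.34 and Spearman's rho = 0.52 with Guca2a within groups, which did not pass (permutation p = 0.0271 and 0.0051, adjusted p = 0.161 and 0.0663 over 26 relations).

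Gcg, the proglucagon gene, did not pass in any comparison, and its rats spread most widely in pair-fed sham. In RYGB rats it had 4.42 at the lowest, a median of 4.64 and 5.03 at the highest, against 4.87, 5.30, 5.15, 4.77 and 4.55 in RYGB sham rats. The groups overlapped, with 3 RYGB rats below all sham rats. The means were 4.69 ± 0.27 in RYGB and 4.93 ± 0.30 in RYGB sham rats, and the difference of -0.23 ± 0.29 did not pass (interval -0.83 to 0.36, adjusted p = 0.798). It was -0.14 without RYGB sham replicate 2.

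In VSG rats Gcg had 4.39 at the lowest, a median of 4.58 and 4.89 at the highest. VSG sham rats had 4.63, 5.30 and 5.81, and 4 of 6 VSG rats lay below all of them. The difference of -0.58 ± 0.28 did not pass (interval -1.15 to -0.01, adjusted p = 0.542). Pair-fed sham rats had 4.32 at the lowest, a median of 5.29 and 6.80 at the highest, and reached below and above all VSG rats. Against them VSG was at -0.73 ± 0.28 (interval -1.30 to -0.16, adjusted p = 0.292), and at -0.44 without pair-fed sham replicate 1. Pair-fed sham was at 0.14 ± 0.28 against VSG sham (interval -0.43 to 0.71, adjusted p = 0.977). The RYGB effect minus the VSG effect was 0.35 ± 0.40 (interval -0.48 to 1.17, adjusted p = 0.900).

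The highest Gcg values came from arrays that also carried transcripts of insulin, a hormone of pancreatic islets. Whether islet tissue gave part of the Gcg signal was not tested. The mean of Ins1, Ins2 and Iapp, the insulin and amylin genes, was above 5 on 4 arrays: 5.89 in RYGB replicate 4, 8.04 in pair-fed sham replicate 1, 6.62 in pair-fed sham replicate 6 and 6.49 in VSG sham replicate 1. It was at most 4.70 on the other 25. Gcg on these 4 arrays was 5.03, 6.80, 5.99 and 5.81, the highest in RYGB and in VSG sham and the highest pair in pair-fed sham. The 5.03 of RYGB replicate 4 lay below some arrays low in insulin transcripts. VSG sham replicate 2, for example, had Gcg at 5.45 with an insulin mean of 2.72. By group the insulin mean ran between 2.47 and 5.89 in RYGB, 2.03 and 2.66 in RYGB sham, 2.42 and 4.33 in VSG, 2.11 and 8.04 in pair-fed sham, and 2.55 and 6.49 in VSG sham rats. The wider list of 12 measured of 14 islet markers had array means between 3.29 and 4.30, 3.25 and 3.46, 3.26 and 3.94, 3.16 and 5.08, and 3.29 and 4.42 in the same groups. None of the 3 insulin and amylin genes was called in any comparison. Of the islet list only Slc2a2, a glucose transporter that enterocytes also make, was called, at -0.85 ± 0.16 in RYGB against its sham (adjusted p = 0.00133, named after its value was seen). In that comparison 2.64% of all genes were called.

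With these 4 arrays left out, a choice made after the data were seen, Gcg averaged 4.63 ± 0.24 in RYGB (n = 5) and 4.93 ± 0.30 in RYGB sham rats (n = 5). It averaged 4.62 ± 0.22 in VSG (n = 6), 4.83 ± 0.55 in pair-fed sham (n = 4) and 5.08 ± 0.38 in VSG sham rats (n = 5). VSG was then at -0.20 ± 0.21 against pair-fed sham (adjusted p = 0.806) and at -0.46 ± 0.19 against its sham (adjusted p = 0.508). Pair-fed sham was at -0.26 ± 0.22 against VSG sham, with the sign turned (adjusted p = 0.977). RYGB was at -0.30 ± 0.20 against its sham (adjusted p = 0.547). Among the remaining 25 arrays Gcg and the insulin mean had r = 0.13 and rho = 0.07 within groups (permutation p = 0.434 and 0.701, adjusted p = 0.705 and 0.911 over 26 relations).

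Gcg was also set against the exocrine markers. Over the 29 arrays, within groups, Gcg and the exocrine mean had r = 0.54 and rho = 0.52, which did not pass (permutation p = 0.025 and 0.014, adjusted p = 0.161 and 0.121). The r was 0.35 without the 2 arrays whose exocrine mean, with group means subtracted, lay farthest from its median. The exocrine mean ran between 4.78 and 8.06 in VSG, 2.99 and 8.70 in pair-fed sham and 3.19 and 7.82 in VSG sham rats. With it as a covariate Gcg was at -0.69 ± 0.29 in RYGB against its sham (adjusted p = 0.322), -0.85 ± 0.25 in VSG against its sham (adjusted p = 0.264) and -0.92 ± 0.25 in VSG against pair-fed sham (adjusted p = 0.113). In the same order it was at -0.54 ± 0.20, -0.54 ± 0.19 and -0.48 ± 0.19 with the islet covariate (adjusted p = 0.190, 0.345 and 0.342), and at -0.61 ± 0.21, -0.55 ± 0.19 and -0.54 ± 0.19 with the insulin gene covariate (adjusted p = 0.146, 0.330 and 0.250). The genes closest to Gcg after subtracting group means were Gimd1 (r = 0.68), Aqp12a (0.66), a water channel of pancreatic acinar cells, Dap (0.64), Cyrib (0.63) and Ctrl (0.63), a pancreatic protease. Without subtracting them they were Aqp12a (0.66), Tmem86b (0.62), Mrpl28 (0.60), Car4 (0.59) and Cdkal1 (0.58).

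**Figure D3:**
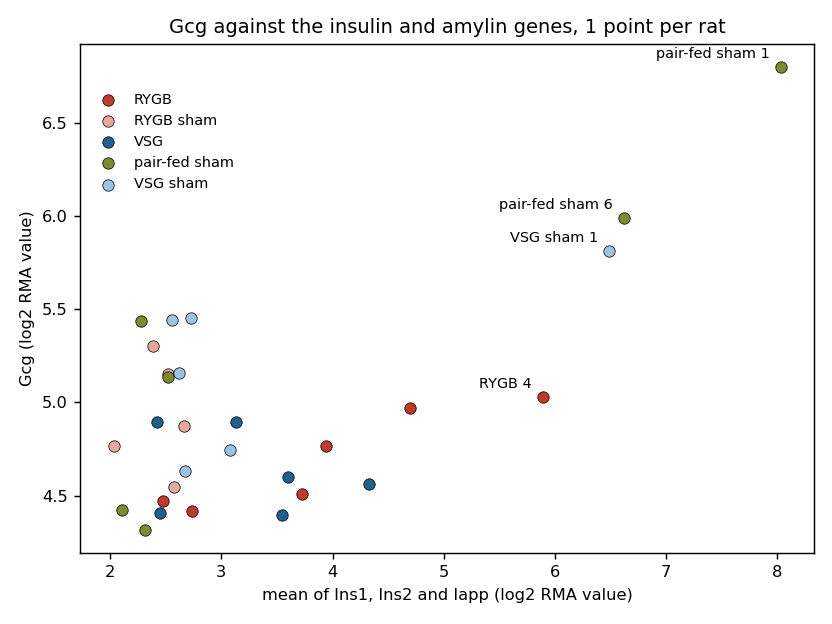
Gcg (vertical axis) is plotted against the mean of Ins1, Ins2 and Iapp (horizontal axis), both as log2 RMA values, with 1 point for each rat coloured by group. The 4 labelled arrays with an insulin mean above 5 carry Gcg at 5.03 to 6.80, and the other 25 lie between 4.32 and 5.45.

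Ghrl, the ghrelin gene, had its lowest mean in VSG rats and did not pass in any comparison. VSG rats had 6.99 at the lowest, a median of 7.46 and 7.64 at the highest, against 7.55, 7.76 and 8.17 in pair-fed sham and 7.46, 7.66 and 7.74 in VSG sham rats. Of the 6 VSG rats 5 lay below all pair-fed sham rats and 3 below all VSG sham rats. VSG was at -0.38 ± 0.13 against pair-fed sham (interval -0.65 to -0.11, adjusted p = 0.238) and at -0.22 ± 0.13 against its sham (interval -0.49 to 0.05, adjusted p = 0.678). VSG replicate 4 was far below the others, and without it these differences were -0.30 and -0.14. Pair-fed sham was at 0.16 ± 0.13 against VSG sham (interval -0.11 to 0.43, adjusted p = 0.944), with 4 of 6 rats above all sham rats. The 4 arrays rich in insulin transcripts were also left out, a choice made after the data were seen. VSG was then at -0.30 ± 0.15 against pair-fed sham and at -0.26 ± 0.14 against its sham. Pair-fed sham was at 0.04 ± 0.15 against VSG sham in that fit.

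In RYGB rats Ghrl had 7.60 at the lowest, a median of 7.80 and 8.09 at the highest, within the range of RYGB sham rats, which had 7.76, 7.45, 8.22, 7.65 and 7.27. The difference was 0.15 ± 0.14 (interval -0.13 to 0.44, adjusted p = 0.693), and it was 0.05 without RYGB sham replicate 5 and 0.29 without RYGB sham replicate 3. The RYGB effect minus the VSG effect was 0.37 ± 0.19 (interval -0.02 to 0.77, adjusted p = 0.610), and none of the 4 members was called in this test, where 0.392% of all genes were. The enzyme that acylates ghrelin, Mboat4, was among the 10 measured of 12 hormone receptors and peptidases and was not called.

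Gip, the incretin of K cells, did not pass in any comparison, and its group means lay between 9.20 and 9.41. RYGB rats had 9.14 at the lowest, a median of 9.40 and 9.69 at the highest, against 8.94, 9.21, 9.65, 9.36 and 8.87 in RYGB sham rats, and only 1 RYGB rat lay above all sham rats. The difference was 0.21 ± 0.13 (interval -0.07 to 0.48, adjusted p = 0.538), and it was 0.12 without RYGB sham replicate 5 and 0.32 without RYGB sham replicate 3. VSG rats had 9.07, 9.32 and 9.41 as lowest, median and highest, pair-fed sham rats 8.98, 9.26 and 9.60, and VSG sham rats 8.96, 9.19 and 9.48, and the 3 groups overlapped. VSG was at 0.08 ± 0.13 against its sham (interval -0.19 to 0.34, adjusted p = 0.917), and at 0.00 ± 0.13 against pair-fed sham (interval -0.27 to 0.26, adjusted p = 0.996). Pair-fed sham was at 0.08 ± 0.13 against VSG sham (interval -0.18 to 0.34, adjusted p = 0.970). The RYGB effect minus the VSG effect was 0.13 ± 0.19 (interval -0.25 to 0.51, adjusted p = 0.925).

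From rat to rat within groups, Gip and Ghrl were correlated. Over the 29 arrays with group means subtracted r was 0.73 and Spearman's rho 0.67 (permutation p = 0.00014 and 0.00051, adjusted p = 0.00364 and 0.0133 over 26 relations). The correlation was above 0 in 5 of 5 groups, between 0.54 and 0.89. It was 0.65 without the 2 arrays whose Ghrl, with group means subtracted, lay farthest from its median. Both values of a rat come from the same extract and array. With the mean of the list of prohormone processing and granule genes, Gip had r = 0.04 and Ghrl r = 0.27 within groups. Neither passed (permutation test, adjusted p = 0.874 and 0.451). Of the other 5 pairs of members none passed, with r between 0.05 and 0.48.

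**Figure D4:**
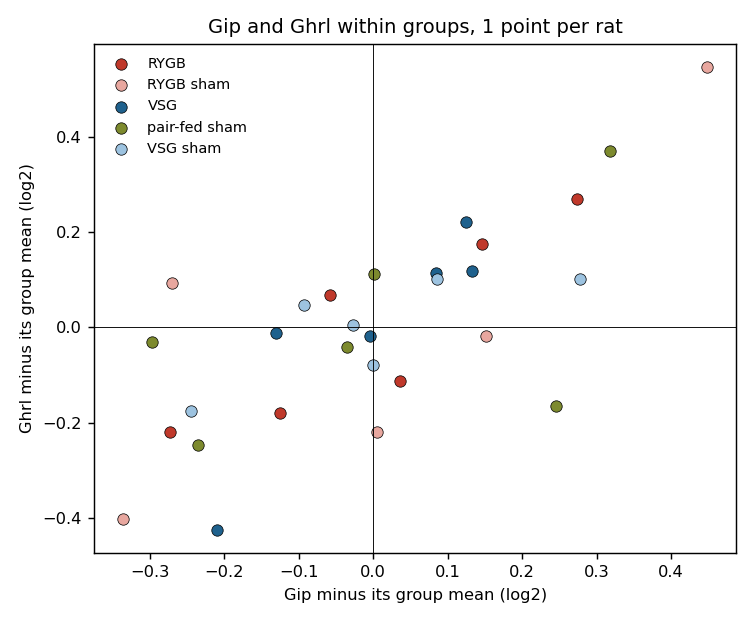
Each point is 1 rat, with Gip minus its group mean on the horizontal axis and Ghrl minus its group mean on the vertical axis, both in log2 units, coloured by group. The points run from lower left to upper right with r = 0.73 over the 29 rats.

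The genes that followed Gip most closely within groups were Cir1 (r = 0.80), Ghrl (0.73), C13h2orf76 (0.73), Mrps33 (0.73) and Ube2m (0.72), and for Ghrl they were Hacd1 (0.74), Gip (0.73), Mea1 (0.71), Ercc1 (0.70) and Fbxo6 (0.70). With group means kept they were Cir1 (0.74), Gpn2 (0.72), Qprt (0.71), Rusc1 (0.67) and Lpar2 (0.65) for Gip. For Ghrl they were Fbxo6 (0.73), Arpc3 (0.69), Trappc1 (0.68), C8g (0.67) and RDH7 (0.67).

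By group mean, the order differed between the genes. Guca2a ran RYGB, VSG, pair-fed sham, RYGB sham, VSG sham from high to low, and only the gap between RYGB and VSG (0.26) exceeded its SD within groups (0.18). Ghrl ran RYGB, pair-fed sham, RYGB sham, VSG sham, VSG, Gip ran RYGB, pair-fed sham, VSG, RYGB sham, VSG sham, and Gcg ran pair-fed sham, VSG sham, RYGB sham, RYGB, VSG. For these 3 genes every gap between neighbours in the order was below the SD within groups. VSG sham minus RYGB sham was 0.28 ± 0.29 for Gcg, -0.01 ± 0.13 for Gip, -0.03 ± 0.14 for Ghrl and -0.11 ± 0.11 for Guca2a. None of these passed, and limma called 0% of all genes between the shams, with 757 at an unadjusted p under 0.05.

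Of the 17 measured genes in a list of 22 gut hormones and peptides, 1 rose after RYGB, none fell and 16 did not pass. The 1 was Guca2a, itself among the genes chosen, and 2.64% of all genes were called in this comparison. None of the 17 was called in the other comparisons, where 0% to 0.508% of all genes were. The median difference was 0.01 in RYGB against its sham, -0.04 in VSG against its sham, -0.00 in VSG against pair-fed sham and 0.06 in pair-fed sham against VSG sham, beside 0.00, -0.01, -0.02 and 0.01 over all genes. Pyy, the ileal and colonic satiety hormone peptide YY, was low on these arrays, with 2.31 at the lowest, a median of 2.51 and 2.92 at the highest in RYGB rats, against 2.70, 3.34 and 3.72 in RYGB sham rats. In VSG rats Pyy had 2.07, 2.33 and 3.10 as lowest, median and highest. VSG sham rats spread widely (SD 0.95), with 2.35, 2.82 and 4.70. The difference of Pyy was -0.76 ± 0.31 in RYGB (adjusted p = 0.241) and -0.78 ± 0.30 in VSG against their shams (adjusted p = 0.426). Gast, the gastrin gene, named after its values were seen, was at -0.50 ± 0.21 in RYGB (adjusted p = 0.255) and at -0.27 ± 0.20 in VSG against their shams (adjusted p = 0.766). Cck, Sct and Guca2b had no row with a single symbol and were not analysed here.

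**Figure D5:**
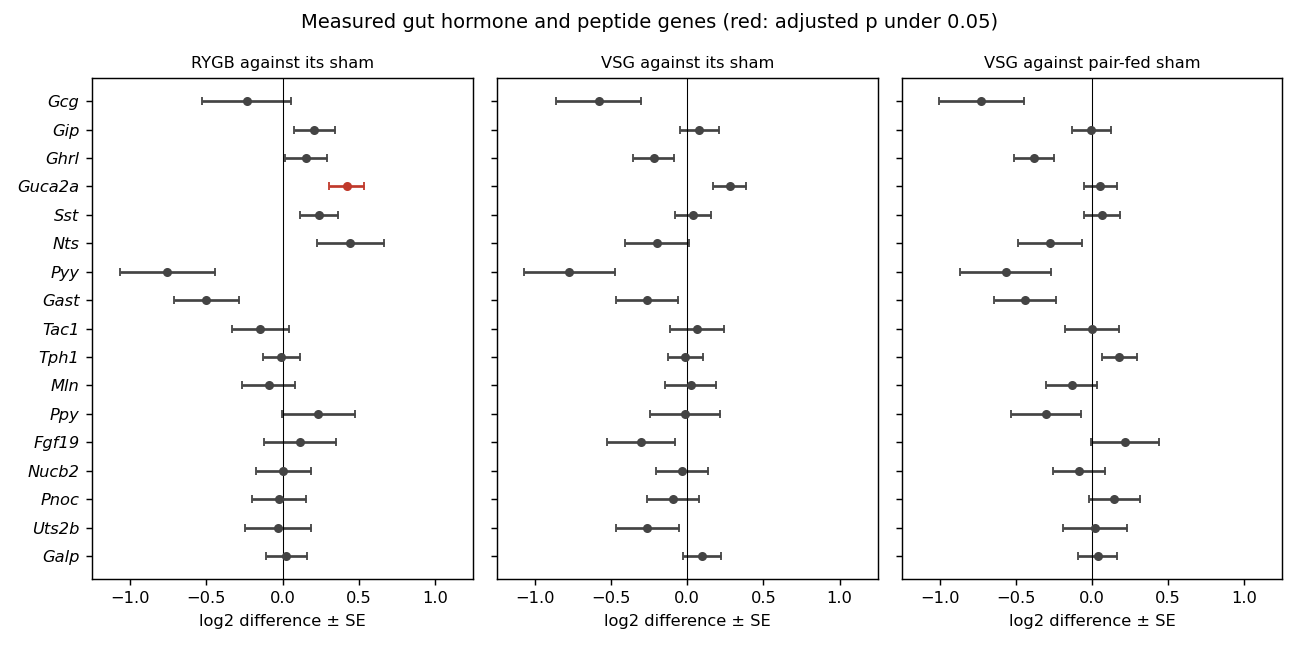
Log2 differences (horizontal axis) with bars of 1 SE are shown for the 17 measured gut hormone and peptide genes, 1 row for each gene, with a panel each for RYGB and for VSG against the own sham and for VSG against pair-fed sham. Red marks an adjusted p under 0.05, which Guca2a alone has in RYGB (0.42). Pyy lies at -0.76 and -0.78 in the first and second panel. The row Fgf19 is the rat gene also known as Fgf15.

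Few of all genes were called in any comparison (0% to 2.64%), and genes that process, specify or sense for these hormones were mostly uncalled. Of 14 measured of 19 genes of prohormone processing and granules none was called. Scgn, a calcium sensor of secretory cells, had the smallest p, at -0.55 ± 0.15 in VSG against pair-fed sham (adjusted p = 0.0916), with levels of 1.78 to 2.27 in VSG and 2.23 to 3.06 in pair-fed sham rats. Of 10 measured of 20 enteroendocrine transcription factors none was called either. Gata4, a GATA factor of the proximal intestine, had 7.80 to 8.16 in RYGB and 7.16 to 7.82 in RYGB sham rats, a difference of 0.34 ± 0.11 that did not pass (adjusted p = 0.0854). Foxa1, a factor in the maturation of secretory cells, was at 0.46 ± 0.15 in VSG against its sham (adjusted p = 0.263).

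Among 10 measured of 12 hormone receptors and peptidases, Anpep, the brush-border aminopeptidase N, rose after RYGB, and the other 9 did not pass, where 2.64% of all genes were called. It had 11.64 at the lowest, a median of 11.71 and 11.91 at the highest in RYGB rats, against 11.25, 11.39 and 11.45 in RYGB sham rats. These groups did not overlap, as was true of 2.78% of all genes in either direction. The rise was 0.35 ± 0.08 (adjusted p = 0.0165), and it was not called with the exocrine covariate (0.31, adjusted p = 0.126), with the 2 groups fitted alone (0.35, adjusted p = 0.0980) or without RYGB replicate 1 or RYGB sham replicate 4 (0.32 each, adjusted p = 0.0511 and 0.0588). Glp2r, the receptor of the glucagon-like peptide that promotes mucosal growth, was at -0.48 ± 0.17 after RYGB (adjusted p = 0.136). Of 13 measured of 17 nutrient sensors none was called in any comparison, where 0% to 2.64% of all genes were. Ffar4, a receptor for long-chain fatty acids on enteroendocrine cells, was at -0.35 ± 0.16 in RYGB (adjusted p = 0.322) and at 0.49 ± 0.15 in VSG against their shams (adjusted p = 0.263). The difference of these effects was -0.83 ± 0.22 and did not pass (adjusted p = 0.106).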

How the data were processed

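Duodenal RNA of 29 rats was amplified and biotin-labelled with Nugen kits and measured on Affymetrix arrays, per the labels' protocols. The authors deposited log2 expression values made with RMA in Affymetrix Expression Console 1.3.0.187, per the submitters' processing notes. The sources used here give neither chip definition nor filter. Array medians lay between 2.80 and 2.97, and no arrays were copies (highest r = 0.977).

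Of 36685 rows, 14824 had 1 gene symbol in the platform annotation, 829 had several and 21032 were not named. Symbols were updated through Entrez numbers (154 not found). Where a gene had several rows (234 of 14557 genes) the one of highest mean stood for it. Groups came from the labels, which call the rats biological replicates. One model of 5 group means was fitted with limma 3.58.1 in R 4.3.3 (lmFit, eBayes), with 6 contrasts and an F-test, two-sided, Benjamini-Hochberg adjusted. It was tested on simulated data. The number of arrays limits the precision. Relations were tested by 100000 permutations within groups (scipy 1.17.1).

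The text names the 4 members, called genes of the lists and up to 4 a list with the smallest p. It also names the 5 genes of highest Pearson r to each member among genes above the median level, passing over unnamed loci, olfactory and vomeronasal receptors and immunoglobulin segments. Members and lists were chosen with earlier results of these data known. Alternatives left out low genes, arrays or groups, or changed the rows used, the prior, the scaling, array weights, covariates (pancreatic, islet and gastric transcripts) or the replicate block. Groups share replicate numbers, which were not treated as pairs of rats in the main model. Of 23 same-numbered pairs, 2 had deviations correlated above 0.1 (-0.22 to 0.23). In 5 of the 23 the same number gave the highest correlation. Such correlations cannot exclude that some rats were paired.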

Additional observations from a re-analysis of the deposited data

Results flagged for a closer look

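Ghrl in VSG replicate 4 stood apart from the rest of its group. Its log2 RMA value was 6.99, and its gap to the nearest of the other VSG rats was 0.628 of the range of the 6 values, above the limit for a single far value. Of 20 checks (4 genes in 5 groups) this was the 1 found, and chance marks about 1 in 20.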

How the results depend on the processing

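Of the 14 settings other than leaving out 1 array, those named here ended a call or turned a sign for the 4 members, and the cause was not tested. The rise of Guca2a in RYGB against its sham was not called with all rows tested (0.42, adjusted p = 0.0738), arrays centred on their median (0.42, 0.0503), the exocrine covariate (0.32, 0.294), the islet covariate (0.36, 0.0854), the gastric covariate (0.39, 0.0611), the insulin gene covariate (0.36, 0.113), which was chosen after seeing the data, and the 2 groups fitted alone (0.42, 0.0798). The replicate block gave 0.42 (adjusted p = 0.0740). With 1 array left out it ran between 0.36 and 0.49. The F-test of Guca2a was lost with the exocrine covariate (F = 4.60, adjusted p = 0.113), the gastric covariate (5.20, 0.0680) and the replicate block (6.02, 0.0503), and ran between 5.47 and 9.81 with 1 array left out, lost without RYGB replicate 3, 4 or 5.

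Signs turned only in uncalled differences. Gip in VSG against pair-fed sham was 0.0065 with centred arrays, 0.0406 after quantile normalization, 0.0139 with the exocrine covariate, 0.0005 with the islet covariate and 0.0018 without the 4 arrays high in insulin genes (-0.063 to 0.0602 with 1 array left out). Gip between the shams was 0.0354 after quantile normalization, 0.0319 with array weights, 0.0119 with the exocrine covariate, 0.0142 with the replicate block, 0.0013 with the insulin covariate and 0.0432 without the 4 arrays (-0.0896 to 0.1064). Ghrl between the shams was 0.0314 with array weights and 0.0006 without the 4 arrays (-0.1351 to 0.1022). Gcg in pair-fed sham against VSG sham was -0.0569, -0.0138 and -0.26 with the islet covariate, the insulin covariate and without the 4 arrays (-0.15 to 0.35), and its RYGB effect minus VSG effect was -0.0007 and -0.0554 with the islet and insulin covariates. Guca2a in VSG against pair-fed sham ran between -0.0107 and 0.1557 with 1 array left out.

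The number of genes called ran between 192 and 496 in RYGB against its sham, 6 and 37 in VSG against its sham, 10 and 123 in VSG against pair-fed sham and 45 and 83 in the difference of the effects over all settings, and was 0 in every setting in the other comparisons. With 5 or 6 arrays a group, a missed threshold leaves a difference within the printed intervals.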
